A study of Homo sapiens with 13 samples.

Results

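The subject is the interaction between the uncoupler FCCP and preconditioning in AC16 cells, a human cell line of ventricular cardiomyocyte origin that is labelled as myocyte. All 13 of the 13 RNA libraries of the study belong to it, in a design of 2 by 2 groups taken from the treatment in the labels: 3 control libraries, 3 FCCP libraries, 4 preconditioning libraries and 3 preconditioning+FCCP libraries. All 13 are labelled wildtype. The preconditioning was mitochondrial and optogenetic, made with a construct named mOpto. The sources used here do not give the dose or time of FCCP, the interval between preconditioning and FCCP, or whether cells without preconditioning held mOpto or saw light. Since no label states that the replicates were grown apart, each p-value sets an effect against the library-to-library spread only, and that spread may be technical.

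FCCP carries protons across the inner mitochondrial membrane, so that respiration runs without making ATP and the membrane potential falls. Cells answer such stress through the integrated stress response, in which kinases lower general translation while the transcription factor ATF4 is made and switches on genes of amino acid supply. A mild stress given beforehand, called preconditioning, is known to alter the answer to a later one in heart cells. Sterol and lipid genes are run by another switch: SREBP transcription factors are held in the endoplasmic reticulum by INSIG proteins when sterols are plentiful and move to the nucleus when sterols are scarce.

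The interaction of a gene is its FCCP effect with preconditioning (preconditioning+FCCP minus preconditioning) minus its FCCP effect without preconditioning (FCCP minus control), each as a log2 change. The same number is the preconditioning effect under FCCP minus the preconditioning effect without FCCP. A value below 0 means that preconditioned cells moved lower on FCCP than the other cells did. Calls were made where the adjusted p was under 0.05 in edgeR's quasi-likelihood test, fitted across all genes, and SE is the standard error of the log2 value. Levels are CPM, the counts of a gene per 1000000 counts of its library's scaled total, and are listed by library number.

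Libraries differed in ways that the groups do not explain. Reads that aligned to several places made up 7.13% to 11.5% of all reads in control 1, control 2, the 3 FCCP libraries and preconditioning+FCCP 3, and 3.16% to 5.22% in control 3, the 4 preconditioning libraries and preconditioning+FCCP 1 and 2. Neither set of libraries holds all 4 groups, so no interaction can be had within a set. Control 3, FCCP 1 and preconditioning+FCCP 3 also stood apart from their groups in the share of counts from mitochondrial genes, which was 3.00% in control 3 against 9.58% and 8.95% in the other controls, 6.49% in FCCP 1 against 1.94% and 1.55%, and 6.42% in preconditioning+FCCP 3 against 1.33% and 2.32%. Without those 3 libraries each FCCP effect is taken within a single set. For many of the results below, though not all, values without them are given too. With them left out, preconditioning and set coincide, so an FCCP effect that differs by preconditioning cannot be told apart from one differing by set. The 3 were picked because they stood apart, so leaving them out narrows the spread within groups and tends to add calls.

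The FCCP response of 3180 of the 16756 genes tested differed between preconditioned and other cells (19.0% called). The interaction was higher for 1571 genes (9.38%) and lower for 1609 genes (9.60%), with a median over all genes tested of 0.07. Among the called genes 2603 had an absolute log2 interaction of at least 1 and 860 of at least 2, and 5794 genes had an unadjusted p under 0.05. All 3180 calls held with a term for the library set, which called 4504 genes. That term could hardly move the interaction estimates, so it is no check on these calls. From control to FCCP and from preconditioning to preconditioning+FCCP, the share of libraries in each set shifts equally. Without control 3, FCCP 1 and preconditioning+FCCP 3 together, libraries picked because they stood apart, 3097 calls held and 6421 genes were called. Leaving out preconditioning+FCCP 2 gave 2013 calls, FCCP 3 gave 2076 and FCCP 2 gave 2086, and 1633 of the 3180 calls held without each of the 13 libraries in turn.

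Most of the interaction came from FCCP effects that were called only in preconditioned cells. FCCP without preconditioning changed 590 genes (3.52% called), and FCCP with preconditioning changed 6594 genes (39.4% called). These effects share no library. The preconditioning effect, seen from the other side of the design, was called for 3950 genes without FCCP (23.6%) and for 5976 genes under FCCP (35.7%), and for 459 and 3629 genes with a term for the library set. Of the 3180 interaction genes, 2643 had the larger FCCP estimate in preconditioned cells and 2383 had FCCP estimates of opposite sign. Counts of the FCCP effect without preconditioning ran from 142 genes without FCCP 2 to 893 without FCCP 1 and reached 3113 without control 3, FCCP 1 and preconditioning+FCCP 3, so the number of genes sorted into each form below moves with these libraries.

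Sorted by its FCCP effects, the interaction took 9 forms. A fall was gained in 1334 genes: FCCP lowered them in preconditioned cells and was not called in the others. A rise was gained in 1261 genes. A rise turned into a fall in 51 genes and a fall into a rise in 36. A rise was lost in 74 genes and a fall lost in 88. In 16 genes both effects had the same direction and the second was larger, in 2 it was smaller, and in 318 neither FCCP effect was called by itself.

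**Figure D1:**
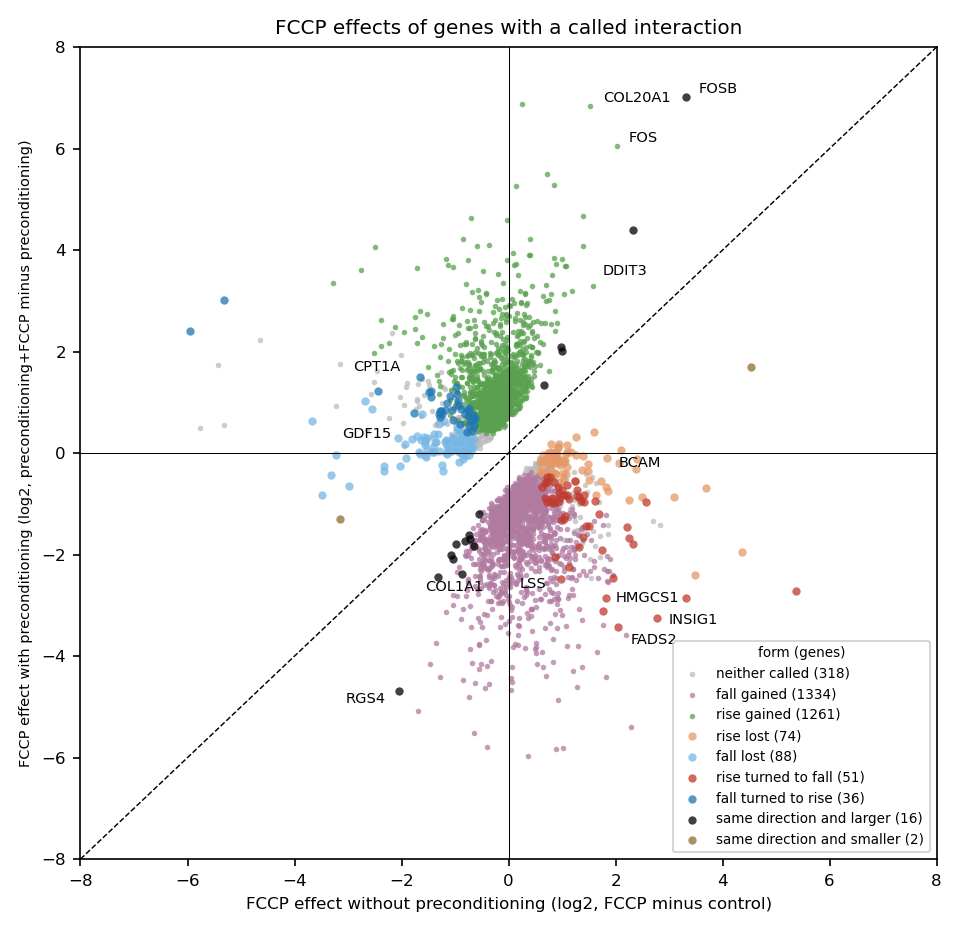
Each point is a gene with a called interaction, placed by its log2 FCCP effect without preconditioning (x axis) and with preconditioning (y axis) and coloured by form. The dashed line marks equal effects; the 1334 genes with a gained fall spread down the vertical axis and the 1261 with a gained rise spread up it, and the 51 genes whose rise turned into a fall lie at the lower right.

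The same forms can be read from the side of preconditioning. Among the 1334 gained falls, 809 were lower in preconditioning+FCCP than in FCCP and not called between preconditioning and control, 279 were raised by preconditioning alone and not called under FCCP, and 170 did both. Among the 1261 gained rises, 620 were higher in preconditioning+FCCP than in FCCP and not called between preconditioning and control, 415 were lowered by preconditioning alone and not called under FCCP, and 141 did both. By group means, 770 of the 1609 genes with a lower interaction had preconditioning as the highest group and preconditioning+FCCP as the lowest, and 670 of the 1571 with a higher interaction had the reverse order of these groups.

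**Figure D2:**
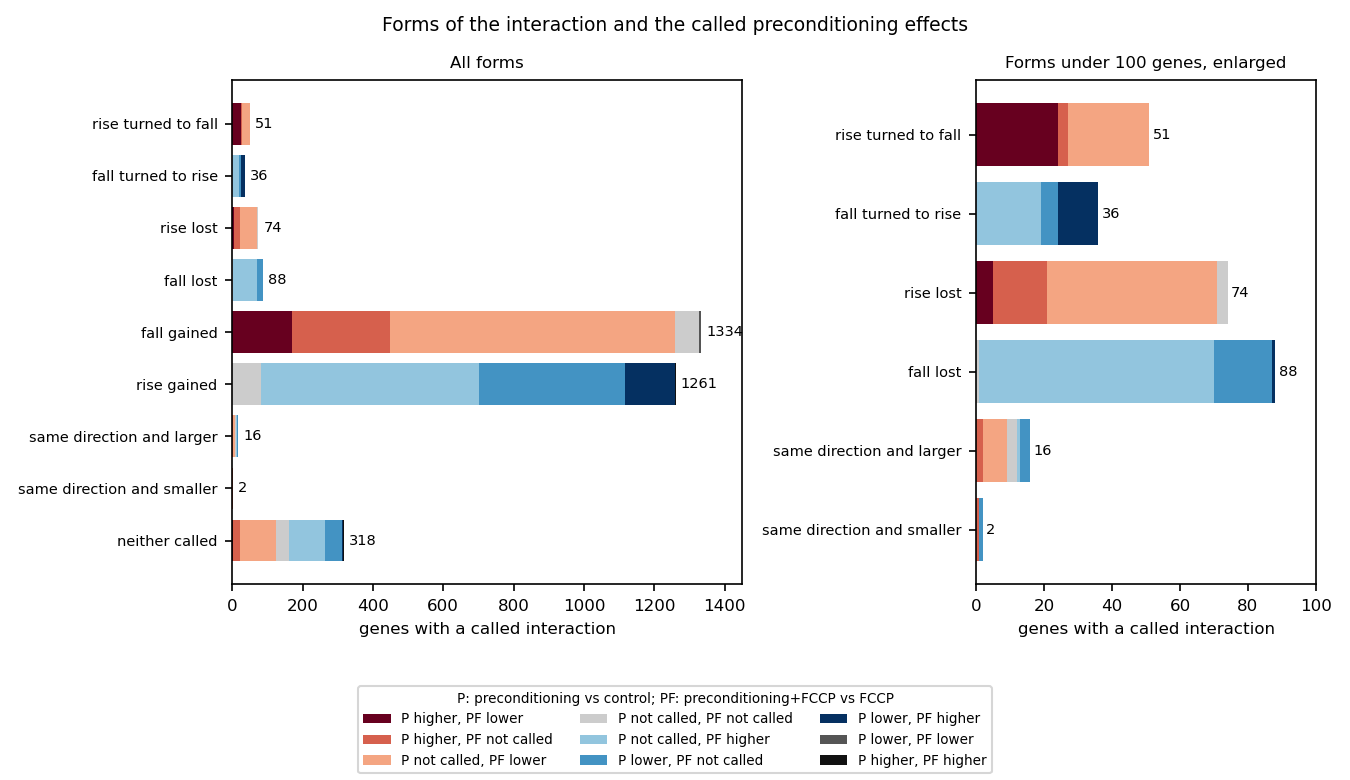
Bars count the genes with a called interaction in each form (left, all forms; right, the forms under 100 genes enlarged), split by whether preconditioning against control (P) and preconditioning+FCCP against FCCP (PF) were called. Of the 51 genes whose rise turned into a fall, 24 were higher with preconditioning alone and lower with both treatments than with FCCP.

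Lipid genes led the form in which a rise turned into a fall: FCCP raised them in cells without preconditioning and lowered them in preconditioned cells. The largest interactions there, among genes with a mean of at least 5 CPM in a group, were those of INSIG1 (ENSG00000186480), which retains SREBP in the endoplasmic reticulum, FADS2 (ENSG00000134824), a desaturase of polyunsaturated fatty acids, HMGCS1 (ENSG00000112972), which makes HMG-CoA for the mevalonate pathway, and FASN, the fatty acid synthase. All 51 genes of this form kept their interaction call without each library in turn. Called effects of opposite direction make a large interaction, so this is no check on the form. The form itself held 9 genes without FCCP 3 and 14 without FCCP 2. Upstream stretches of HMGCS1, INSIG1 and LSS, lanosterol synthase, are shown because these genes carry the pattern and SREBP is known to act at such promoters beside NF-Y, which binds the CCAAT box. They are RefSeq sequences of GRCh38.p14, not the build of the counts, on the strand of the gene, and end before its start: HMGCS1 at chr5:43313468-43313607, minus strand, INSIG1 at chr7:155297668-155297752, plus strand and LSS at chr21:46228880-46228964, minus strand. Capitals mark CCAAT or its reverse complement ATTGG.
HMGCS1: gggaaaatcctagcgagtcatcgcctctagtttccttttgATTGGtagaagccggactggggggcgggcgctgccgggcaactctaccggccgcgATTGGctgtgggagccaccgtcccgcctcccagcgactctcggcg
INSIG1: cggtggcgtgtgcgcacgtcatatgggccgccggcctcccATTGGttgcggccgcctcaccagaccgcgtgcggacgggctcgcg
LSS: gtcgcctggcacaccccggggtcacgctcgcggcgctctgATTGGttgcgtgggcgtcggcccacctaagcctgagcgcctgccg

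The box begins 155 and 100 bases before the start in HMGCS1, 170 in INSIG1 and 150 in LSS. In the window of each start, only the 250 bases before the start were searched, on both strands. CCAAT was found in 32.0% of all 35114 windows and for 40.9% of the 11751 tested genes with a window. It was found for 13 of the 15 sterol synthesis genes with a window and for 11 of the 15 fatty acid synthesis genes. For the SREBP regulators, INSIG1 among them, it was found for 6 of 14. Over called members alone it was found for 11 of 12, 6 of 10 and 3 of 5 in these lists. Such a match is a stretch of letters and not a measured binding site.

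INSIG1 was at 94.0, 115 and 35.2 CPM in the control libraries, 99.8, 493 and 1065 CPM in the FCCP libraries, 1150.3, 1103, 702 and 1182 CPM in the preconditioning libraries and 159, 77.1 and 91.5 CPM in the preconditioning+FCCP libraries. Preconditioning 1, 2 and 4 lay above every library of the other groups, FCCP 3 lay above preconditioning 3, and preconditioning+FCCP 2 and 3 lay within the control range with preconditioning+FCCP 1 above it. FCCP changed INSIG1 by 2.76 ± 0.61 (SE; adjusted p = 0.0251) without preconditioning and by -3.24 ± 0.61 (SE; adjusted p = 0.000781) with it, which gives an interaction of -6.01 ± 0.86 (SE; adjusted p = 0.000618). Had the separate effects of FCCP and preconditioning simply added on the log2 scale, INSIG1 would have averaged 7030.4 CPM in preconditioning+FCCP, where 109 ± 43.7 CPM (SD, n = 3) was measured.

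HMGCS1 was at 33.3, 46.9 and 27.8 CPM in the control libraries, 43.5, 139 and 184 CPM in the FCCP libraries, 483, 464, 230.4 and 472 CPM in the preconditioning libraries and 60.2, 45.7 and 37.8 CPM in the preconditioning+FCCP libraries. FCCP 1 lay within the control range while FCCP 2 and 3 lay above it, and all preconditioning libraries lay above those of FCCP. The interaction was -4.87 ± 0.58 (SE; adjusted p = 0.000316), from an FCCP effect of 1.76 without and -3.11 with preconditioning. FADS2 was at 52.5, 78.9 and 34.8 CPM in the control libraries, 96.4, 209.8 and 383 CPM in the FCCP libraries, 435, 408, 319 and 374 CPM in the preconditioning libraries and 58.3, 27.0 and 21.6 CPM in the preconditioning+FCCP libraries. Its interaction was -5.48 ± 0.63 (SE; adjusted p = 0.00026), and its preconditioning+FCCP libraries overlapped the controls alone. FASN averaged 227 ± 36.0 CPM (SD, n = 3) in control, 797 ± 599 CPM (SD, n = 3) in FCCP, 1341 ± 349.9 CPM (SD, n = 4) in preconditioning and 186 ± 61.9 CPM (SD, n = 3) in preconditioning+FCCP, with an interaction of -4.67 ± 0.62 (SE; adjusted p = 0.000467).

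Of the 20 sterol synthesis genes tested, 17 had a lower interaction, none a higher one, and the list's median was -2.36 against 0.07 over all genes. A rise turned into a fall in 9 of them, among them ACAT2, DHCR7, FDFT1, HMGCS1, LSS, MSMO1, MVD and MVK. A rise was lost in IDI1 and SC5D, and falls were gained in FDPS, HSD17B7, NSDHL, PMVK and SQLE among others. The median FCCP effect of the list was 1.06 without and -1.33 with preconditioning, and the median effect of preconditioning alone was 1.59. LSS had the smallest adjusted p of the list, with an interaction of -3.47 ± 0.36 (SE; adjusted p = 0.000171), and DHCR7, which makes cholesterol from its last precursor, had -4.42 ± 0.53 (SE; adjusted p = 0.000316). Counts of lower members ran from 16 to 19 without each library in turn, and were 20 of 20 without control 3, FCCP 1 and preconditioning+FCCP 3.

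The mean log2 CPM of the sterol list put numbers on this for each group. It ran from 4.95 to 5.18 in the control libraries, 5.58 to 6.63 in FCCP, 6.42 to 6.78 in preconditioning and 5.17 to 5.51 in preconditioning+FCCP. Preconditioning with FCCP therefore overlapped the controls and lay below every preconditioning library and every FCCP library. The fatty acid synthesis list ran from 5.80 to 5.94, 6.24 to 6.85, 7.08 to 7.40 and 5.79 to 6.39 in the same order of groups. There preconditioning+FCCP overlapped both control and FCCP.

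**Figure D3:**
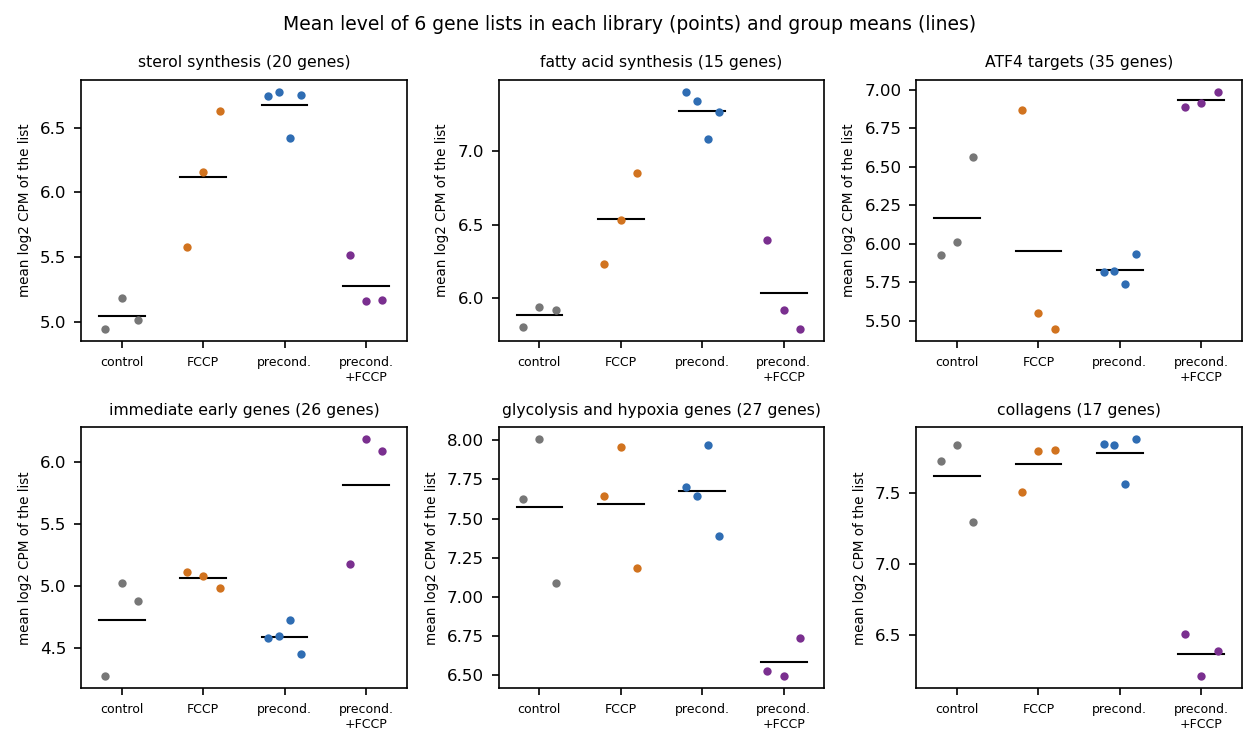
Mean log2 CPM of the tested members of 6 gene lists (y axis) in each library (points) by group (x axis), with lines at the group means. Sterol and fatty acid genes have their highest group means in preconditioning, though for sterol genes FCCP 3 lies above preconditioning 3. ATF4 target genes are highest in the 3 preconditioning+FCCP libraries and in FCCP 1. Glycolysis genes and collagens are lowest in preconditioning+FCCP.

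Of 15 fatty acid synthesis genes, 11 had a lower interaction and none a higher one (median -1.34), though 1 was higher with the library set term, and without FCCP 1, control 2 or preconditioning+FCCP 3. Besides FADS2 and FASN, the fatty acid desaturase FADS1 had an interaction of -3.39 ± 0.39 (SE; adjusted p = 0.000283). SCD, the stearoyl-CoA desaturase, was in the form of gained falls: it was at 173, 292 and 53.4 CPM in the control libraries, 234, 665 and 857 CPM in the FCCP libraries, 1763, 1642, 1178 and 1495 CPM in the preconditioning libraries and 299, 72.8 and 63.8 CPM in the preconditioning+FCCP libraries. Its FCCP effect was 1.76 ± 0.61 (SE; adjusted p = 0.119) without and -3.39 ± 0.63 (SE; adjusted p = 0.000789) with preconditioning, and the interaction was -5.15 ± 0.87 (SE; adjusted p = 0.00173). Of 16 genes that regulate SREBP or handle lipoproteins, 7 had a lower interaction, none a higher one (median -0.94).

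SREBF1, which encodes SREBP-1, averaged 83.5 ± 21.1 CPM (SD, n = 3) in control, 155 ± 61.4 CPM (SD, n = 3) in FCCP, 159.8 ± 16.4 CPM (SD, n = 4) in preconditioning and 48.4 ± 2.49 CPM (SD, n = 3) in preconditioning+FCCP, with an interaction of -2.61 ± 0.35 (SE; adjusted p = 0.000519). ABCA1, which exports cholesterol and is known to rise when sterols are plentiful, moved in the same direction as the synthesis genes, with an interaction of -3.13 ± 0.43 (SE; adjusted p = 0.000545).

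The opposite form, a fall turned into a rise, held 36 genes, and all kept their interaction call without each library in turn. The form itself held 5 genes without FCCP 3 and 6 without FCCP 2. CPT1A (ENSG00000110090), which passes long-chain fatty acids into mitochondria for oxidation, was at 22.2, 23.6 and 47.6 CPM in the control libraries, 15.5, 7.24 and 6.90 CPM in the FCCP libraries, 9.73, 12.8, 9.94 and 9.82 CPM in the preconditioning libraries and 25.3, 35.3 and 28.6 CPM in the preconditioning+FCCP libraries. FCCP and preconditioning libraries lay below all controls, and preconditioning+FCCP lay within the control range. For CPT1A the FCCP effect was -1.65 ± 0.34 (SE; adjusted p = 0.0193) without and 1.49 ± 0.30 (SE; adjusted p = 0.00147) with preconditioning, an interaction of 3.14 ± 0.45 (SE; adjusted p = 0.000633). CHORDC1, a cochaperone of HSP90, had an interaction of 2.09 ± 0.42 (SE; adjusted p = 0.00423). Control 3 was the highest CHORDC1 library, at 189 CPM against 81.0 and 60.2 CPM in the other controls, and its call held without it.

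The other genes that led this form are less certain. PFDN5, a prefoldin subunit, had an interaction of 3.65 ± 0.71 (SE; adjusted p = 0.00341) but a level of only 3.50, 5.16 and 9.51 CPM in the control libraries and 2.72, 4.40 and 5.25 CPM in preconditioning+FCCP. GOLGA8B (2.69 ± 0.35 SE, adjusted p = 0.000467) and GOLGA6L10 (2.70 ± 0.51 SE, adjusted p = 0.0031) belong to a golgin family of near-identical copies. Reads aligned to several places were tallied apart from the genes, at 3.16% to 11.5% of reads by library, so such copies may be undercounted. GOLGA8B was at 40.2, 41.8 and 30.6 CPM in control, 14.8, 15.1 and 11.2 CPM in FCCP, 9.38, 9.15, 5.09 and 9.25 CPM in preconditioning and 15.3, 20.0 and 22.7 CPM in preconditioning+FCCP, so preconditioning+FCCP lay above both single treatments and below the controls.

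A rise was lost in 74 genes: FCCP raised them only without preconditioning by call, and the interaction was called too. BCAM, a laminin receptor, was at 118, 72.7 and 52.7 CPM in the control libraries, 190.0, 185 and 318 CPM in the FCCP libraries, 75.1, 76.7, 67.2 and 116 CPM in the preconditioning libraries and 60.9, 52.9 and 60.3 CPM in the preconditioning+FCCP libraries. All FCCP libraries lay above all others. Its interaction was -2.04 ± 0.40 (SE; adjusted p = 0.00347), with FCCP effects of 1.51 without and -0.53 with preconditioning. The protease inhibitor gene SPINT1 (-2.60 ± 0.58 SE, adjusted p = 0.00706), the fatty acid binding protein gene FABP3 (-2.48 ± 0.54 SE, adjusted p = 0.00612) and the matrix metalloproteinase gene MMP11 (-2.46 ± 0.48 SE, adjusted p = 0.00342) had the other leading interactions. In this form too were CLPP, a protease of the mitochondrial matrix, at -1.03 ± 0.26 (SE; adjusted p = 0.0126), and UQCRC1, a core subunit of respiratory complex III, at -0.95 ± 0.22 (SE; adjusted p = 0.00768). FKBP8, a mitochondrial outer membrane protein that binds BCL2, had -1.30 ± 0.30 (SE; adjusted p = 0.00897). The median FCCP effect of the 74 genes was 0.96 without preconditioning and -0.16 with it, and 43 calls held without each library in turn.

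A fall was lost in 88 genes. GDF15, a stress cytokine and known ATF4 target, was at 44.2, 22.5 and 63.1 CPM in the control libraries, 15.4, 9.22 and 9.11 CPM in the FCCP libraries, 14.3, 18.0, 8.76 and 25.5 CPM in the preconditioning libraries and 17.3, 21.4 and 18.0 CPM in the preconditioning+FCCP libraries. Controls lay above all FCCP libraries, and the preconditioning+FCCP range fell within that of preconditioning. For GDF15 the FCCP effect was -1.94 ± 0.39 (SE; adjusted p = 0.0185) without and 0.18 ± 0.35 (SE; adjusted p = 0.706) with preconditioning, an interaction of 2.13 ± 0.51 (SE; adjusted p = 0.0104). BCL2, the antiapoptotic protein, was at 1.72, 3.76 and 4.25 CPM in the control libraries, 0.902, 0.856 and 0.552 CPM in the FCCP libraries, 2.53, 2.61, 3.55 and 3.48 CPM in the preconditioning libraries and 4.98, 3.98 and 2.20 CPM in the preconditioning+FCCP libraries, with an interaction of 2.35 ± 0.58 (SE; adjusted p = 0.0113). Its FCCP libraries lay below all others. MIR222HG, a microRNA host transcript (2.32 ± 0.57 SE, adjusted p = 0.0112), MSC (2.39 ± 0.54 SE, adjusted p = 0.00726) and ZNF786 (1.90 ± 0.51 SE, adjusted p = 0.0172) had the other leading interactions among genes at 5 CPM or more in a group. HSPB8, a small heat shock protein, had 3.71 ± 0.65 (SE; adjusted p = 0.00206) at 0.276 to 3.32 CPM.

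**Figure D4:**
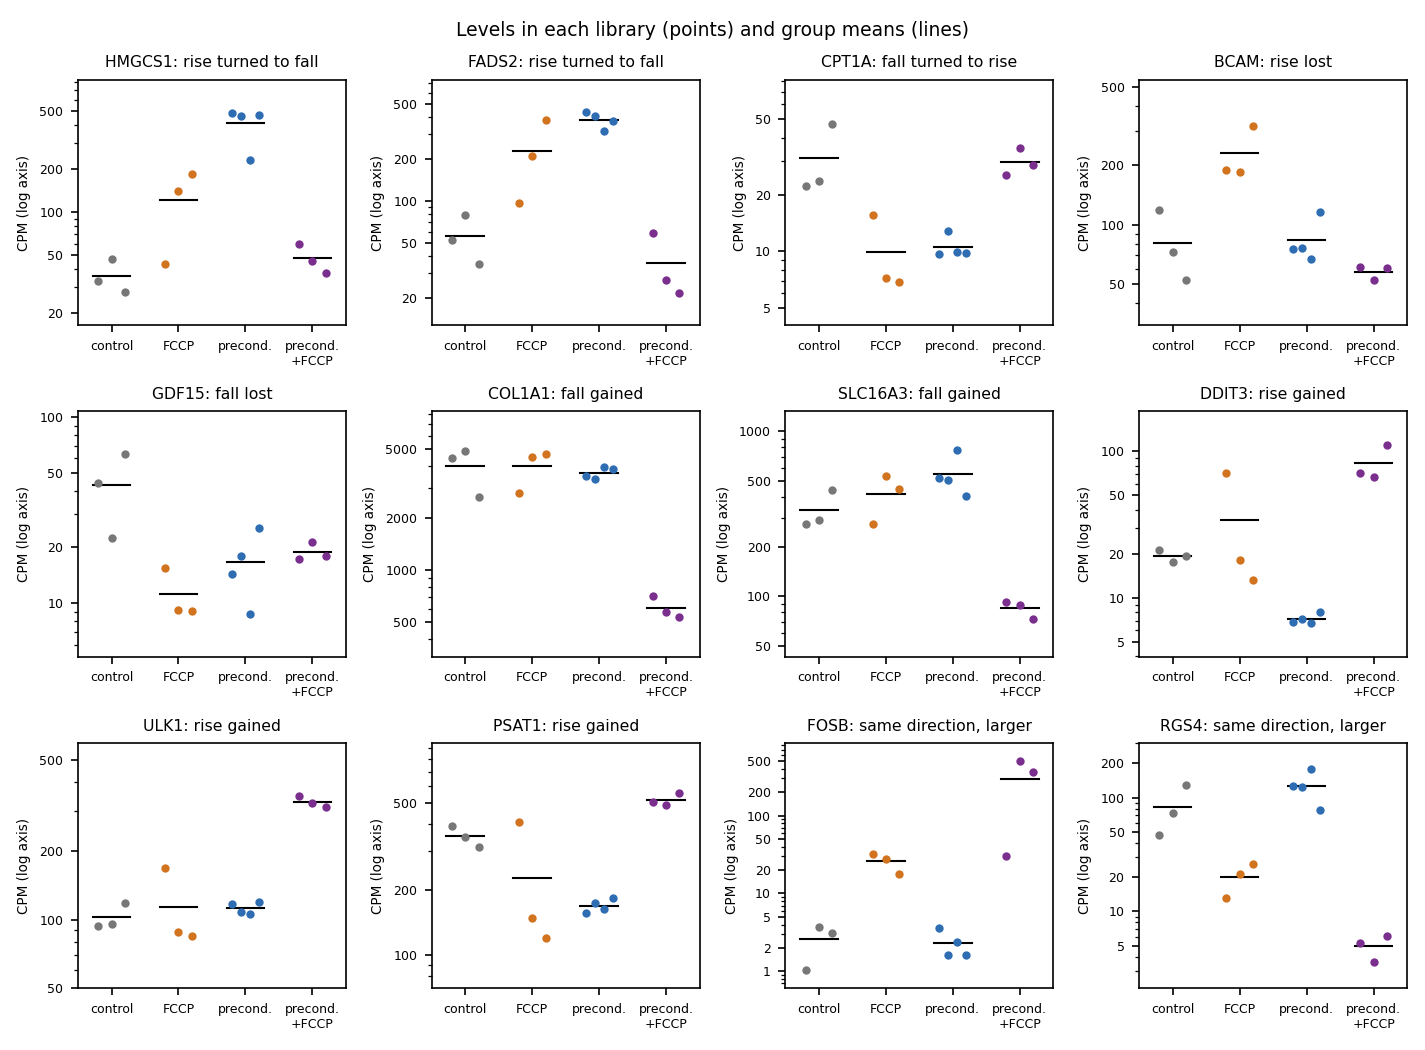
CPM on a log axis in each library (points) for 12 genes of several forms, by group (x axis), with lines at the group means. COL1A1 and SLC16A3 are low in preconditioning+FCCP alone, and ULK1 is high there alone. HMGCS1 and FADS2 have their highest group mean in preconditioning, though for FADS2 FCCP 3 lies above preconditioning 3 and 4. In FCCP 1, DDIT3 and PSAT1 lie apart from FCCP 2 and 3.

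Gained falls were the commonest form. Matrix genes were prominent in it: of 17 collagen genes, 10 had a lower interaction and none a higher one (median -1.31), all 10 as gained falls. COL1A1 (ENSG00000108821), a chain of type I collagen, was at 4463, 4879 and 2656 CPM in the control libraries, 2803, 4515 and 4704 CPM in the FCCP libraries, 3497, 3384, 3940.1 and 3833 CPM in the preconditioning libraries and 713, 575 and 536 CPM in the preconditioning+FCCP libraries. The preconditioning+FCCP libraries lay below all others, and the other 3 groups overlapped. For COL1A1 the FCCP effect was 0.00 ± 0.26 (SE; adjusted p = 0.996) without and -2.59 ± 0.27 (SE; adjusted p = 1.15e-05) with preconditioning, an interaction of -2.59 ± 0.36 (SE; adjusted p = 0.000575). COL1A2 (-2.75 ± 0.46 SE, adjusted p = 0.00163) and COL3A1 (-3.54 ± 0.62 SE, adjusted p = 0.00195) were also lower. Control 3 was low for COL3A1, at 98.2 CPM against 375 and 592 CPM, and the call held without it.

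Of 27 genes for matrix glycoproteins and crosslinking enzymes, 14 had a lower interaction and none a higher one (median -1.22), with 1 higher without control 3, FCCP 1 and preconditioning+FCCP 3 together. THBS2, thrombospondin 2, was raised by preconditioning alone (1.30 ± 0.23 SE, adjusted p = 0.00276) and averaged 306 ± 20.0 CPM (SD, n = 4) there and 47.6 ± 20.6 CPM (SD, n = 3) in preconditioning+FCCP, with an interaction of -2.11 ± 0.34 (SE; adjusted p = 0.00121). The fibulins FBLN1 (-1.72 ± 0.29 SE, adjusted p = 0.00182) and FBLN2 (-1.47 ± 0.25 SE, adjusted p = 0.00192) were also lower, FBLN1 as a rise that turned into a fall. Of 19 targets of YAP or TGF-beta signalling, 4 had a lower interaction (AXL, CRIM1, LTBP2 and TGFB2) and 1 a higher one (ID1). The median was -0.10. Over all genes 9.60% were lower and 9.38% higher. Without control 3, FCCP 1 and preconditioning+FCCP 3 together 5 of these targets were lower and 4 higher. CCN2, a standard YAP target, was not called (0.67 ± 0.39 SE, adjusted p = 0.232), and its FCCP effect was -1.45 ± 0.29 (SE; adjusted p = 0.0185) without and -0.78 ± 0.27 (SE; adjusted p = 0.031) with preconditioning.

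Glycolysis followed the same form. Of 27 glycolysis and hypoxia genes, 15 had a lower interaction and none a higher one (median -1.27), all 15 as gained falls: ALDOC, ENO1, GAPDH, GPI, HK1, LDHA, PDK1, PFKL, PFKP, PGAM1, PGK1, PKM, SLC16A3, SLC2A1 and TPI1. SLC16A3, the MCT4 carrier that exports lactate, was at 275, 289.7 and 439 CPM in the control libraries, 274, 535 and 446 CPM in the FCCP libraries, 519, 503, 773 and 404 CPM in the preconditioning libraries and 91.9, 88.3 and 73.3 CPM in the preconditioning+FCCP libraries. Its preconditioning+FCCP libraries lay below all others, and the interaction was -3.02 ± 0.39 (SE; adjusted p = 0.000434). LDHA, the lactate dehydrogenase subunit of glycolytic cells, was at 1848, 2430.0 and 871 CPM in the control libraries, 1876, 2302 and 1118 CPM in the FCCP libraries, 1673, 1511, 2236 and 1141 CPM in the preconditioning libraries and 249, 179.7 and 403 CPM in the preconditioning+FCCP libraries, again with preconditioning+FCCP below all others, and had an interaction of -2.61 ± 0.53 (SE; adjusted p = 0.00435). PFKL, a subunit of the committing enzyme phosphofructokinase (-1.76 ± 0.25 SE, adjusted p = 0.000575), and PKM, pyruvate kinase (-2.07 ± 0.36 SE, adjusted p = 0.00207), were also lower. The list had 12 to 15 lower members without each library in turn and 17 without control 3, FCCP 1 and preconditioning+FCCP 3 together, where 1 was higher, as it was without FCCP 1 or preconditioning+FCCP 1 alone.

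Gained falls also held single genes of mitochondrial control and of the cell cycle. Their lists had few called members, beside 19.0% of all genes called. PINK1, the kinase that marks depolarized mitochondria for mitophagy, was raised by preconditioning alone (1.52 ± 0.26 SE, adjusted p = 0.00237) and was at 11.7, 14.1 and 15.6 CPM in the control libraries, 13.9, 13.0 and 18.0 CPM in the FCCP libraries, 39.1, 39.5, 46.6 and 33.2 CPM in the preconditioning libraries and 21.7, 15.4 and 9.15 CPM in the preconditioning+FCCP libraries. Preconditioning libraries lay above all others, and the interaction was -1.47 ± 0.37 (SE; adjusted p = 0.0125). Of 18 mitophagy, fusion and fission genes, PINK1, FKBP8 and PHB1 were lower and none was higher (median -0.38). Higher members numbered 3 without control 3, 2 without FCCP 1, 1 without preconditioning+FCCP 3 and 2 with the set term, and 5 were higher and 5 lower without control 3, FCCP 1 and preconditioning+FCCP 3 together. Among 21 DNA replication genes, RRM2, a subunit of ribonucleotide reductase (-1.63 ± 0.32 SE, adjusted p = 0.00377), and MCM7 of the replicative helicase (-1.28 ± 0.27 SE, adjusted p = 0.00502) were lower and CDC6 higher. Among 19 mitosis genes, CCNB1 (-1.24 ± 0.27 SE, adjusted p = 0.00581) and PLK1 (-1.44 ± 0.34 SE, adjusted p = 0.00914) were lower, and the medians of these lists were -0.20 and -0.10. Without FCCP 1 or control 2 the lower replication genes numbered 4, and without control 3, FCCP 1 or preconditioning+FCCP 1 the lower mitosis genes did. Higher mitosis genes then numbered 2 without control 3 and 1 without FCCP 1, and with the set term 2 were higher and 6 lower in either list. The calls of PHB1 and CDC6 ended without 10 and 9 single libraries, with log2 interactions of -1.17 to -0.70 and 0.78 to 1.26.

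Among genes with a mean of at least 5 CPM in a group, the largest gained falls outside these lists were those of LINC02984 (-4.72 ± 0.68 SE, adjusted p = 0.000633), OLR1, a scavenger receptor (-4.65 ± 0.98 SE, adjusted p = 0.0052), and NYNRIN (-4.54 ± 0.77 SE, adjusted p = 0.00173). OLR1 varied widely without preconditioning, at 32.2, 4.86 and 5.13 CPM in control and 15.5, 22.1 and 71.4 CPM in FCCP, and was at 1.22, 0.780 and 2.66 CPM in preconditioning+FCCP, below every other library.

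Part of the ATF4 target list was among the gained rises, with 10 members of 35. Of the 35 genes, 12 had a higher interaction and 1 a lower one (median 1.20), and 34 of the 35 estimates were above 0. FCCP moved the list by a median of -0.10 without and 0.95 with preconditioning. The exception was PYCR1, an enzyme of proline synthesis (-1.22, adjusted p = 0.0121). The calls moved with FCCP 1, whose mean level over the list was 6.87 log2 CPM against 5.55 and 5.44 in FCCP 2 and 3, beside 6.89 to 6.99 in preconditioning+FCCP. Without FCCP 1, 27 members were higher, and without FCCP 2, FCCP 3 or preconditioning+FCCP 2 the counts were 6, 6 and 7. Without control 3, FCCP 1 and preconditioning+FCCP 3 together 28 were higher.

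DDIT3 (ENSG00000175197), the stress transcription factor CHOP, was at 21.4, 17.5 and 19.4 CPM in the control libraries, 71.5, 18.0 and 13.2 CPM in the FCCP libraries, 6.91, 7.16, 6.75 and 8.06 CPM in the preconditioning libraries and 71.5, 66.5 and 110.0 CPM in the preconditioning+FCCP libraries. The preconditioning libraries were the lowest of all, and FCCP 1 was level with preconditioning+FCCP 1 while FCCP 2 lay within the control range and FCCP 3 below it. For DDIT3 the FCCP effect was 0.82 ± 0.44 (SE; adjusted p = 0.307) without and 3.52 ± 0.43 (SE; adjusted p = 3.69e-05) with preconditioning, an interaction of 2.70 ± 0.60 (SE; adjusted p = 0.00711). Added on the log2 scale, the separate effects would give 12.7 CPM, and 82.7 ± 23.8 CPM (SD, n = 3) was measured. PSAT1, an enzyme of serine synthesis, was at 391, 351 and 315 CPM in the control libraries, 411, 147 and 119 CPM in the FCCP libraries, 155, 174, 163 and 182 CPM in the preconditioning libraries and 504, 491 and 558 CPM in the preconditioning+FCCP libraries, with an interaction of 2.26 ± 0.45 (SE; adjusted p = 0.00377). FCCP 1 lay above the PSAT1 range of the controls, FCCP 2 and 3 below it, and preconditioning+FCCP above all other libraries. MTHFD2, of mitochondrial one-carbon metabolism, had 1.60 ± 0.35 (SE; adjusted p = 0.0066).

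The gene of ATF4 itself was at 1006, 1002 and 709 CPM in the control libraries, 2269.8, 965 and 758 CPM in the FCCP libraries, 415, 414, 405 and 439 CPM in the preconditioning libraries and 1228, 1270.4 and 2482 CPM in the preconditioning+FCCP libraries, with an interaction of 1.43 ± 0.48 (SE; adjusted p = 0.0468). That call ended without control 1, control 2, FCCP 2, FCCP 3, preconditioning 1, preconditioning 2, preconditioning 3, preconditioning 4, preconditioning+FCCP 2 or preconditioning+FCCP 3, with log2 interactions of 1.00 to 2.07 over all libraries left out in turn. Other genes of the pathway were not called: ATF3 (1.01 ± 0.64 SE, adjusted p = 0.282), which FCCP raised both without (2.27) and with (3.28) preconditioning, TRIB3, a pseudokinase (2.04 ± 0.79 SE, adjusted p = 0.0796), CHAC1, which degrades glutathione (2.36 ± 1.32 SE, adjusted p = 0.219), and ASNS, asparagine synthetase (1.44 ± 1.34 SE, adjusted p = 0.476). CHAC1 was at 136, 1.38 and 4.56 CPM in FCCP 1, 2 and 3, and without control 3, FCCP 1 and preconditioning+FCCP 3 its interaction was 5.23 (adjusted p = 1.11e-06). TRIB3 then had 2.93 (adjusted p = 7.65e-06).

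Stretches upstream of CEBPG, a partner of ATF4 with a higher interaction (1.64, adjusted p = 0.0172), and of CHAC1 show the core of the amino acid response element that ATF4 is known to bind, TGATGNAA, searched on both strands. Both are RefSeq sequences of GRCh38.p14 on the gene's strand, CEBPG at chr19:33374031-33374112, plus strand and CHAC1 at chr15:40953222-40953309, plus strand, with the core or its reverse complement in capitals.
CEBPG: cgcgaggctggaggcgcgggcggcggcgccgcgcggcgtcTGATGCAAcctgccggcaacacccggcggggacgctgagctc
CHAC1: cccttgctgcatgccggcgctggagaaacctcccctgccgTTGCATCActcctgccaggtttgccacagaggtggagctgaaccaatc

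The core begins 42 bases before the start in CEBPG and 209 in CHAC1. It was found for 6 of the 28 ATF4 target genes with a window, for 2.42% of the tested genes with a window and in 3.14% of all windows. Of the 9 called members with a window it was found for CEBPG alone, and the other 5 matches were in members that were not called.

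Genes beside the ATF4 program had fewer calls. Over all genes 19.0% were called, 9.38% higher and 9.60% lower. Of 20 cytosolic tRNA synthetase genes, 3 had a higher interaction (CARS1, MARS1 and NARS1) and none a lower one, with CARS1 at 1.60 ± 0.32 (SE; adjusted p = 0.00399). The counts were 9 without FCCP 1 and 1 without FCCP 2, FCCP 3 or preconditioning+FCCP 2, and the calls of MARS1 and NARS1 ended without 7 and 4 single libraries, with log2 interactions of 1.00 to 1.81 and 0.94 to 1.57. With the set term, or without control 3, 1 synthetase was lower. Without control 3, FCCP 1 and preconditioning+FCCP 3 together 9 were higher and 2 lower. Of 22 genes of the endoplasmic reticulum unfolded protein response, 4 were higher (DNAJB11, DNAJB9, DNAJC3 and SYVN1) and none lower. SYVN1, an E3 ubiquitin ligase of protein disposal, was at 67.4, 56.3 and 80.2 CPM in the control libraries, 80.2, 57.2 and 73.0 CPM in the FCCP libraries, 64.3, 58.4, 61.2 and 60.7 CPM in the preconditioning libraries and 169, 158 and 119 CPM in the preconditioning+FCCP libraries, with the 3 preconditioning+FCCP libraries above all others and an interaction of 1.24 ± 0.25 (SE; adjusted p = 0.00449). Leaving out FCCP 1 gave 8 higher members, FCCP 2 gave 1, and control 3, FCCP 3, preconditioning 1, 2 or 3 and preconditioning+FCCP 1, 2 or 3 gave 2 each. Without control 3, 2 members were lower, and with the set term 1 was. Leaving out control 3, FCCP 1 and preconditioning+FCCP 3 together gave 9 higher and 2 lower. The DNAJB11 call ended without FCCP 2 (log2 interaction 0.86 to 1.30 over single libraries left out) and the DNAJB9 call without 9 libraries (0.95 to 1.79).

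Autophagy genes were split. ULK1, the kinase that starts autophagy, was at 94.1, 96.0 and 118 CPM in the control libraries, 168, 88.2 and 84.9 CPM in the FCCP libraries, 116, 108, 106 and 119.9 CPM in the preconditioning libraries and 349, 325 and 310.1 CPM in the preconditioning+FCCP libraries. Every preconditioning+FCCP library lay above all others, and the interaction was 1.40 ± 0.30 (SE; adjusted p = 0.0063). MAP1LC3B, the autophagosome protein LC3B, averaged 145 ± 4.45 CPM (SD, n = 4) in preconditioning and 403 ± 48.5 CPM (SD, n = 3) in preconditioning+FCCP, with an interaction of 1.27 ± 0.31 (SE; adjusted p = 0.0112). Of 23 lysosome and autophagy genes, these were the 2 with a higher interaction, and 4 were lower (ATG7, CTSA and GAA among them). With library totals as the only scaling the count of lower members was 0, and it ran from 0 without control 2, preconditioning 2 or preconditioning+FCCP 2 to 9 without control 3. Without control 1, FCCP 3, preconditioning 1 or preconditioning 4 it was 1, and without preconditioning 3 it was 2. Higher members numbered 4 without control 3, and the GAA call ended without 5 single libraries (-1.08 to -0.78). With control 3, FCCP 1 and preconditioning+FCCP 3 all left out, 5 members were higher and 10 lower. Over all genes 9.38% were higher and 9.60% lower.

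Immediate early genes, transcription factors made within minutes of a stimulus, had 7 higher interactions among 26 and none lower (median 0.80). FOS was at 5.68, 60.0 and 8.32 CPM in the control libraries, 83.1, 127 and 89.3 CPM in the FCCP libraries, 3.57, 3.52, 4.20 and 4.16 CPM in the preconditioning libraries and 38.6, 361 and 370.1 CPM in the preconditioning+FCCP libraries. Its FCCP effect was 2.02 ± 0.75 (SE; adjusted p = 0.143) without and 6.05 ± 0.80 (SE; adjusted p = 6.63e-05) with preconditioning, an interaction of 4.03 ± 1.03 (SE; adjusted p = 0.0141), and without control 2 the call ended at 2.21. IER2 (2.84 ± 0.65 SE, adjusted p = 0.00767) and EGR2 (2.98 ± 0.77 SE, adjusted p = 0.0147) were also higher, and the EGR2 call ended without control 2 at 2.25. EGR1 was not called (1.21 ± 0.55 SE, adjusted p = 0.133). Preconditioning+FCCP 1 was the lowest of its group for FOS and IER2. The list had 3 higher members without control 2 and 4 without FCCP 2, preconditioning 2, preconditioning 4 or preconditioning+FCCP 2. Of 17 MAPK feedback genes, the phosphatases DUSP2 (2.87 ± 0.57 SE, adjusted p = 0.00377) and DUSP6 and the ERK inhibitor SPRED2 were higher and none lower; 6 were higher without FCCP 1 and 1 without FCCP 2, FCCP 3 or preconditioning+FCCP 2. The DUSP6 and SPRED2 calls ended without 4 and 11 single libraries, with log2 interactions of 1.61 to 2.66 and 0.66 to 1.02. Without control 3, 2 MAPK feedback genes were higher and 3 lower, and with the set term 4 were higher and 1 lower. Without control 3, FCCP 1 and preconditioning+FCCP 3 together 5 were higher and 2 lower. Both lists stand beside 9.38% of all genes higher and 9.60% lower.

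Chaperone and antioxidant genes were called in both directions, beside 19.0% of all genes called in either. Of 19 cytosolic heat shock genes, CHORDC1, HSPB8 and HSPA4L were higher and none lower. Lower members numbered 2 without control 3 and 1 without preconditioning+FCCP 3 or with the set term. Without control 3, FCCP 1 and preconditioning+FCCP 3 together 3 were higher and 4 lower (median -0.39). HSPA4L, an HSP110 protein, was at 14.1, 11.3 and 30.1 CPM in the control libraries, 16.9, 9.41 and 8.63 CPM in the FCCP libraries, 14.9, 16.5, 15.8 and 20.2 CPM in the preconditioning libraries and 53.7, 60.9 and 47.7 CPM in the preconditioning+FCCP libraries, with preconditioning+FCCP above all others, and its interaction was 2.35 ± 0.44 (SE; adjusted p = 0.00301). Of 16 mitochondrial chaperones and proteases, HSPA9, the matrix HSP70 (1.09 ± 0.26 SE, adjusted p = 0.00981), was higher and CLPP lower, and HSPD1 (0.32 ± 0.47 SE, adjusted p = 0.663) and LONP1 (0.18 ± 0.26 SE, adjusted p = 0.672), often used to read the mitochondrial unfolded protein response, were not called. Higher chaperones numbered 2 without FCCP 1 or preconditioning+FCCP 1. Of 25 antioxidant and NRF2 genes, 3 were higher (GCLC, GCLM and HMOX1) and 3 lower (PRDX2 and PRDX5 among them). HMOX1, heme oxygenase 1, had 2.61 ± 0.62 (SE; adjusted p = 0.00947), with control 3 at 272 CPM against 49.3 and 63.4 CPM. Higher antioxidant genes numbered 5 without FCCP 1 and 1 without FCCP 2 or FCCP 3.

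Transcripts made by mitochondria were at different levels within groups. All 13 mitochondrially encoded mRNAs had an estimate above 0 (median 1.92), and 2 were called, MT-ND1 and MT-ND2. MT-ND2, a subunit of complex I, was at 2942, 3545 and 1475 CPM in the control libraries, 1871, 964 and 1083 CPM in the FCCP libraries, 511, 529, 394 and 557 CPM in the preconditioning libraries and 517, 713 and 2743 CPM in the preconditioning+FCCP libraries. Preconditioning+FCCP 3 lay with the controls and FCCP 1, preconditioning+FCCP 1 lay within the preconditioning range, and preconditioning+FCCP 2 just above it. The interaction was 2.43 ± 0.67 (SE; adjusted p = 0.0198), and the call ended without control 2, FCCP 2, FCCP 3 or preconditioning+FCCP 3, as did that of MT-ND1, with log2 interactions of 1.31 to 2.81 and 1.85 to 4.24. Called members of the list numbered 11 without FCCP 1, 8 without control 3, 4 without preconditioning+FCCP 1 and 0 without control 2, FCCP 2, FCCP 3 or preconditioning+FCCP 3. MT-RNR1, the small ribosomal RNA of mitochondria, had 3.89 ± 0.92 (SE; adjusted p = 0.00937) in poly-T selected RNA. Beside 9.38% of all genes higher and 9.60% lower, 4 of 38 nuclear genes for complex I were higher and 1 lower. Of 38 for complexes II to V, 2 were lower and none higher. The 4 became 8 without control 3 and 2 without control 1, control 2, FCCP 2, FCCP 3, preconditioning 1, 2 or 4 or preconditioning+FCCP 2 or 3, and the lower count of complexes II to V ran from 1, without FCCP 2 among others, to 4 without control 3, FCCP 1 or preconditioning+FCCP 3. Higher genes of complexes II to V numbered 6 without control 3 and 1 without preconditioning+FCCP 1. With the set term 4 of them were higher and 4 lower. Without control 3, FCCP 1 and preconditioning+FCCP 3 together 6 were higher and 8 lower. With those 3 libraries left out, 7 complex I genes were higher and 7 lower, with a median of -0.005.

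Host genes of small nucleolar RNAs, many of whose spliced transcripts are removed by nonsense-mediated decay, had 6 higher interactions among 15 and 1 lower, in SNHG16 (median 1.22). GAS5 was at 184, 182 and 188 CPM in the control libraries, 248, 176 and 169 CPM in the FCCP libraries, 94.2, 88.7, 67.1 and 102 CPM in the preconditioning libraries and 184, 241 and 396 CPM in the preconditioning+FCCP libraries, with an interaction of 1.54 ± 0.34 (SE; adjusted p = 0.0065). Preconditioning libraries were the lowest of all. The count of higher members ran from 1 without FCCP 2, FCCP 3 or preconditioning+FCCP 3 to 10 without FCCP 1 or preconditioning+FCCP 1, with 2 or 3 without any other library but control 2, and the SNHG6 and SNHG1 calls ended without 5 and 7 single libraries (1.26 to 2.35 and 1.05 to 2.25). Cytosolic ribosomal protein genes had no called member among 52 in the interaction (median 0.23) by edgeR or DESeq2, with 2 at an unadjusted p under 0.05, though 5 were higher without control 3 and 1 lower without preconditioning+FCCP 3. With the library set term 9 were higher and 1 lower, and without control 3, FCCP 1 and preconditioning+FCCP 3 together 7 were higher and 4 lower, with a median of 0.00. Those with the smallest p were RPL22 (-0.66 ± 0.30 SE, adjusted p = 0.13) and RPL23 (0.93 ± 0.43 SE, adjusted p = 0.136).

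Further lists held up to 4 called members each, beside 19.0% of all genes called. The 14 regulators of mitochondrial biogenesis had none by edgeR or DESeq2 and 1 at an unadjusted p under 0.05, while edgeR called 2 higher and 1 lower without FCCP 1 and 1 lower with the set term. PPARGC1A, which encodes PGC-1alpha, had -0.94 ± 0.64 (SE; adjusted p = 0.316) at 0.425 to 1.32 CPM. Of 21 p53 targets, GADD45A was higher, and FDXR (-1.21 ± 0.27 SE, adjusted p = 0.00648) and BAX (-1.04 ± 0.28 SE, adjusted p = 0.0175) were lower; the BAX call ended without FCCP 3 at -0.89, and higher p53 targets numbered 7 without FCCP 1 and 0 without FCCP 2, FCCP 3 or preconditioning+FCCP 2. Of 16 BCL2 family genes, BCL2 was higher, and BAX, BCL2L1 and BOK were lower, with BOK at -2.38 ± 0.42 (SE; adjusted p = 0.00201), and without FCCP 3 a single lower member was left. Of 19 NF-kB cytokine and chemokine genes, PTGS2 was higher and ICAM1 and VCAM1 lower, and of 16 clock genes CRY1 was higher (1.34 ± 0.32 SE, adjusted p = 0.0101). Lower NF-kB genes numbered 5 without control 3 and 1 without control 2, FCCP 2, preconditioning 1, preconditioning 2 or preconditioning+FCCP 2. Higher ones numbered 4 without FCCP 1 and 2 without preconditioning+FCCP 1, and higher clock genes 4 without FCCP 1 and 2 without control 1, control 2 or preconditioning+FCCP 1. Of 11 energy sensing genes KLF10 was higher, and 1 was lower without control 1, control 3, FCCP 1 or FCCP 3. The calls of PTGS2, ICAM1, KLF10 and GADD45A ended without 8, 5, 8 and 5 single libraries, FCCP 2 among them for each, with log2 interactions of 1.49 to 2.28, -1.89 to -1.16, 1.08 to 1.71 and 1.36 to 2.71. TXNIP (-1.42 ± 0.69 SE, adjusted p = 0.156) and SQSTM1 (1.33 ± 0.60 SE, adjusted p = 0.128) were not called.

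**Figure D5:**
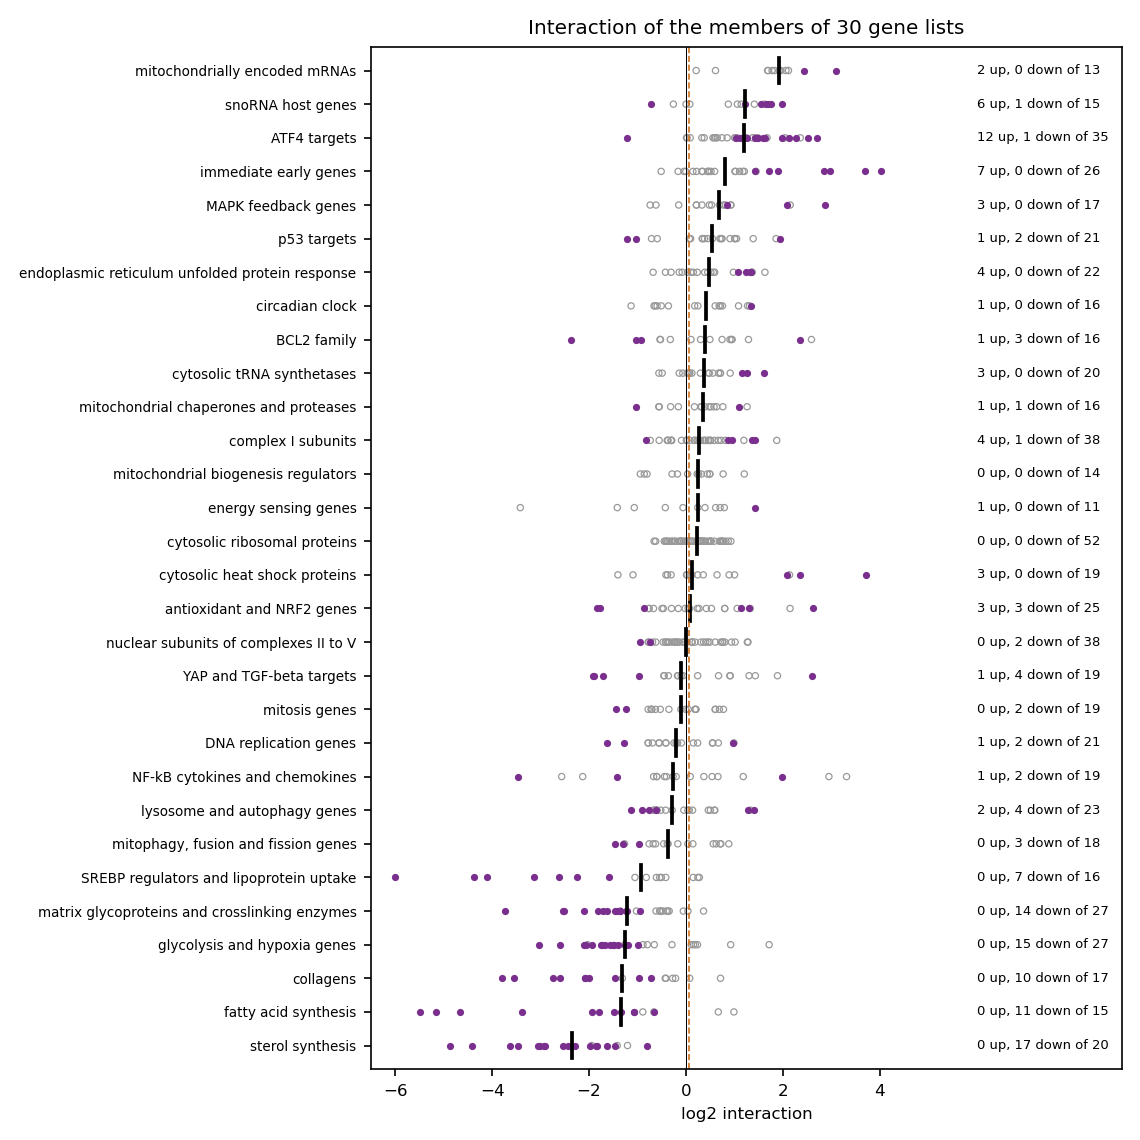
Log2 interaction (x axis) of every tested member of the 30 gene lists: filled points are called, open points are not, black ticks are list medians and the dashed line is the median of all genes tested, 0.07. Counts at the right give called members; medians run from -2.36 in sterol synthesis to 1.92 in mitochondrially encoded mRNAs.

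Leading gained rises outside the lists, at a mean of at least 5 CPM in a group, were those of COL20A1, QRICH2, MT-RNR1 and BNIPL. All but MT-RNR1, which averaged 2498 CPM in control and 1741 CPM in preconditioning+FCCP, were at low level in the other groups. COL20A1, a collagen that the list did not hold, was at 0.115, 0.304 and 0.313 CPM in the control libraries, 1.73, 0 and 0.414 CPM in the FCCP libraries, 0.0576, 0.0568, 0 and 0.104 CPM in the preconditioning libraries and 8.80, 8.75 and 4.07 CPM in the preconditioning+FCCP libraries, with an interaction of 5.31 ± 1.37 (SE; adjusted p = 0.0147) that rests on few counts outside preconditioning+FCCP. QRICH2 was at 1.49, 2.91 and 14.8 CPM in the control libraries, 7.29, 1.12 and 0.898 CPM in the FCCP libraries, 2.30, 2.79, 2.90 and 1.46 CPM in the preconditioning libraries and 25.9, 35.0 and 28.5 CPM in the preconditioning+FCCP libraries, with control 3 above the other controls and an interaction of 4.71 ± 1.02 (SE; adjusted p = 0.00609). BNIPL, a relative of the BNIP2 family, had 3.54 ± 0.85 (SE; adjusted p = 0.01).

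Effects of the same direction in both settings were rare. FOSB, an AP-1 factor, was at 1.03, 3.70 and 3.13 CPM in the control libraries, 32.5, 27.9 and 18.0 CPM in the FCCP libraries, 3.63, 1.65, 2.37 and 1.61 CPM in the preconditioning libraries and 30.2, 502 and 362 CPM in the preconditioning+FCCP libraries. FCCP raised it by 3.32 ± 0.72 (SE; adjusted p = 0.0242) without and 7.01 ± 0.72 (SE; adjusted p = 1.18e-05) with preconditioning, an interaction of 3.69 ± 0.96 (SE; adjusted p = 0.0149). Preconditioning+FCCP 1 lay at the level of the FCCP libraries, and preconditioning+FCCP 2 and 3 far above. RGS4, which shuts off G protein signals, was at 46.6, 73.0 and 129.5 CPM in the control libraries, 13.0, 21.3 and 26.3 CPM in the FCCP libraries, 128, 124, 178 and 78.0 CPM in the preconditioning libraries and 5.21, 3.57 and 6.05 CPM in the preconditioning+FCCP libraries and fell in both settings, by 2.04 and 4.69, with an interaction of -2.65 ± 0.51 (SE; adjusted p = 0.00334). No group overlapped another except control and preconditioning. LPAR1, a lysophosphatidic acid receptor (-1.52 ± 0.32 SE, adjusted p = 0.00484), and ATP8B1, a phospholipid flippase (-1.19 ± 0.23 SE, adjusted p = 0.00338), had the same form. Of the 2 genes with a smaller second effect, PTX3, pentraxin 3, had 1.84 ± 0.62 (SE; adjusted p = 0.0488), a call that ended without control 3, FCCP 2, FCCP 3, preconditioning 1, preconditioning 2, preconditioning 3, preconditioning 4, preconditioning+FCCP 2 or preconditioning+FCCP 3 (0.87 to 2.16).

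In 318 genes the interaction was called and neither FCCP effect was, and in all 318 the FCCP estimates had opposite signs. The sorting itself favours this, since estimates of the same sign differ by less than the larger of them. CTSF, a lysosomal protease, was at 18.7, 20.8 and 24.5 CPM in the control libraries, 23.5, 54.6 and 70.1 CPM in the FCCP libraries, 44.3, 44.6, 40.9 and 54.6 CPM in the preconditioning libraries and 36.3, 26.9 and 17.0 CPM in the preconditioning+FCCP libraries. Its FCCP effect was 1.21 ± 0.33 (SE; adjusted p = 0.0521) without and -0.78 ± 0.31 (SE; adjusted p = 0.0524) with preconditioning, an interaction of -2.00 ± 0.45 (SE; adjusted p = 0.00724). LINC00680 (1.92 ± 0.49 SE, adjusted p = 0.0147), THUMPD2 (1.67 ± 0.40 SE, adjusted p = 0.0095) and TADA1 (1.57 ± 0.36 SE, adjusted p = 0.00856) were the other leading genes, with higher interactions. Of this form 42 calls held without each library in turn.

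Markers of cell types were measured in the same way, since a change in the cells present and a change in RNA per cell cannot be told apart in such bulk libraries. Of 20 cardiomyocyte markers, 6 could be tested, TNNT2 had no count in any library, and MYH6, MYH7 and NKX2-5 were among those too low to test. The summed level of the 6 tested markers was 9.75 to 13.0 CPM in control and 4.16 to 7.80 CPM in FCCP. It was 5.80 to 11.6 CPM in preconditioning and 6.78 to 8.30 CPM in preconditioning+FCCP. GATA4 was at 0.516, 6.25 and 0.563 CPM in the control libraries, 0.0694, 0.197 and 0 CPM in the FCCP libraries, 0.115, 0.284, 0.414 and 0.208 CPM in the preconditioning libraries and 1.91, 1.64 and 0.0565 CPM in the preconditioning+FCCP libraries, and its higher interaction (6.87 ± 1.61 SE, adjusted p = 0.00909) rests on few counts. Fibroblast markers were abundant: 8 of 13 had a lower interaction and none a higher one (median -1.57), and their sum was 5964 to 12930.3 CPM in control, 7691 to 9691 in FCCP, 7367 to 7836 in preconditioning and 1813 to 3354 in preconditioning+FCCP. PDGFRB, a receptor that is no collagen, had -1.69 ± 0.27 (SE; adjusted p = 0.00132). Smooth muscle markers summed to 1992 to 2913, 2164 to 2715, 1624 to 2171 and 808 to 1738 CPM in that order, with 4 of 10 lower (7 without control 3) and none higher. MYLK, the myosin light chain kinase, had -2.45 ± 0.32 (SE; adjusted p = 0.000467).

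Endothelial markers had 2 of 8 tested lower, TEK (-2.58 ± 0.46 SE, adjusted p = 0.00229) and VWF, and none higher (4 lower without control 3), with CDH5 and ERG too low to test. Immune markers had none called by edgeR or DESeq2 among 3 tested, with 0 at an unadjusted p under 0.05, and CD3E had no count in any library. The fibroblast and smooth muscle lists share the direction and the form of the collagen, matrix and glycolysis genes, and COL1A1, COL1A2, COL3A1, DCN and LUM belong both to the fibroblast list and to a matrix list. The part of a change in cell makeup in those results was not tested.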

How the data were processed

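RNA of 13 AC16 samples was sequenced after poly-T selection, per the labels' protocols. The deposited files hold raw counts per gene of each library, as made by the authors, and the submitters' processing notes name HISAT2, HTSeq and hg19; versions, annotation release and strand setting have no source here, so antisense and overlapping genes cannot be told apart. Libraries held 14970803 to 20636229 counts in genes over 63241 gene IDs. Summary rows of the counter were set aside: no feature 2.13% to 5.20%, ambiguous 11.0% to 12.4%, several places 3.16% to 11.5%. No replicate pair within a group agreed within sampling noise (lowest chi-square per degree of freedom 3.21).

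Counts were fitted with edgeR 4.0.16 (R 4.3.3; filterByExpr by group, TMM scaling, a term per group, quasi-likelihood tests) over all 13 libraries. The interaction contrast was tested over 16756 genes with Benjamini-Hochberg adjustment, and SE is the absolute log2 value divided by the root of F. Log2 CPM used a prior count of 2. The scripts were tested on simulated data. Alternatives were DESeq2 1.42.0, limma 3.58.1 (voom), other scalings and filters, a library set term, a replicate block, other thresholds and libraries left out. The members and the 30 gene lists and 5 marker lists (715 genes) were chosen with earlier results of these data known. Named genes are, per form, up to 4 with the largest absolute interaction at a mean of at least 5 CPM in a group, those held without each library first; per list, up to 3 called members by adjusted p, or 2 by p where none was called; and fixed genes. Other list members are named by call alone, CEBPG and PYCR1 after their values were seen. Promoter windows are from RefSeq, GRCh38.p14. A few genes chosen by these rules are not reported here.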

Additional observations from a re-analysis of the deposited data

Results flagged for a closer look

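The FCCP effect differed between cells with and without preconditioning for 3180 genes by the test of that difference, and it was called in both settings with opposite direction for 51 genes whose rise turned into a fall and 36 whose fall turned into a rise.

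In the group of 4 preconditioning libraries, 13 of 129 named genes had a library far from the other 3, where chance flags about 1 in 20 groups. Preconditioning 3 was that library for 11 of them. There INSIG1 was at 702 CPM, HMGCS1 at 230.4, DHCR7 at 226, GOLGA6L10 at 1.42, GOLGA8B at 5.09 and UQCRC1 at 228 CPM. HMOX1 was at 47.4 CPM, PHB1 at 98.8, ICAM1 at 47.7, BOK at 132 and MCM7 at 562 CPM. Preconditioning 2 stood apart for CPT1A, at 12.8 CPM, and preconditioning 4 for MYLK, at 205 CPM. Groups of 3 were not tested. Of these 13 genes, the calls of PHB1 and ICAM1 ended without single libraries, and those of the other 11 held without each.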

How the results depend on the processing

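Of the 114 named genes with a call, 90 kept it without each library in turn, 114 by DESeq2, 106 by limma-voom and 113 without control 3, FCCP 1 and preconditioning+FCCP 3. Depth limits low genes such as GATA4 and COL20A1.

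Interaction calls numbered 3129 with DESeq2 size factors, 3137 with library totals alone (56.8% of them higher against 49.4%, with the median interaction shifted by 0.07), 3419 with no filter, 3144 with a stricter one, 3198 without mitochondrial genes, 4031 by DESeq2 and 3259 by limma-voom. Counts of forms moved more. In the order rise turned to fall, fall turned to rise, rise lost and fall lost, DESeq2 gave 123, 82, 149 and 176, the library set term 84, 68, 143 and 161, and leaving out control 3, FCCP 1 and preconditioning+FCCP 3 gave 360, 531, 399 and 502. Library totals gave 19 falls turned to rises and 51 lost falls, limma-voom 21 and 49, and no filter 94 rises turned to falls. An absolute log2 interaction of at least 1 left 47 lost rises. Effects of the same direction, larger, numbered 77 with no filter, 40 by DESeq2, 10 by limma-voom, 35 with the set term, 145 without the 3 libraries and 9 at a log2 of 1; smaller ones numbered 1 with DESeq2 size factors, 8 with no filter, 5 by DESeq2, 0 by limma-voom and 20 without the 3 libraries. Neither FCCP effect was called for 600 genes with the set term and 479 without the 3 libraries, which gave 2125 gained falls and 6421 interaction calls, 3171 higher and 3250 lower. The FCCP effect without preconditioning had 1078 calls with no filter, 1331 by DESeq2, 382 by limma-voom, 938 with the set term and 3113 without the 3 libraries; the preconditioning effect had 459 and 8405 without FCCP, and 3629 and 9276 with FCCP, in the latter 2 settings. Without the 3 libraries preconditioning and library set coincide, so the 8405 and 9276 calls cannot be told apart from differences between sets. The causes were not tested.

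At an adjusted p under 0.01 the interaction had 1201 calls, 514 higher and 687 lower, by form 2, 0, 3 and 4 in the order above, 604 gained falls, 441 gained rises, 0 of either same-direction form and 147 with neither effect called. FCCP then had 23 and 4022 calls without and with preconditioning, and preconditioning 1424 and 3161 without and with FCCP. Replicate numbers did not pair the libraries: 1 of 18 same-numbered pairs had a correlation of deviations above 0.1 (range -0.20 to 0.158). With the number as a replicate block 1897 genes were called, 841 higher and 1056 lower, with 3, 3, 6 and 9 by form, 702 gained rises, 1 and 0 of the same-direction forms, 53 for FCCP without preconditioning and 1840 for preconditioning without FCCP.

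Single libraries left out in turn gave 2013 to 4576 interaction calls, 887 to 2429 higher calls, 1088 to 2147 lower calls, 9 to 100 rises turned to falls, 5 to 124 falls turned to rises and 11 to 133 lost rises. They gave 19 to 177 lost falls, 909 to 1698 gained falls, 724 to 1806 gained rises, 1 to 24 larger effects of the same direction, 0 to 8 smaller ones and 199 to 579 genes with neither effect called. They also gave 142 to 893 FCCP calls without preconditioning, 5027 to 7688 FCCP calls with it, 1506 to 6057 preconditioning calls without FCCP and 3848 to 7113 preconditioning calls with it.

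Estimates of genes without a call turned sign for ASNS without control 3 (range -0.25 to 4.09 over single libraries left out), for HSPD1 without control 3 (-0.43 to 0.59) and without the 3 libraries (-0.21), and for LONP1 without preconditioning+FCCP 3 (-0.033 to 0.32).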

Other observations

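Genes whose symbols begin with ZNF, most of which encode zinc finger proteins, stood out on reading the table of calls and were counted after their values were seen. Of 503 tested, 132 had a higher interaction (26.2%) and 10 a lower one (1.99%), beside 9.38% and 9.60% of all genes, and 418 estimates were above 0. The median interaction was 0.84, from a median FCCP effect of -0.36 without and 0.46 with preconditioning. Of 12 tested genes of the NPIP family of nuclear pore interacting proteins, 11 had a higher interaction and none a lower one (median 2.84). Of 8 GOLGA6 and GOLGA8 genes, 4 were higher and none lower (median 2.13). The NPIP and GOLGA families hold near-identical copies whose reads can align to several of them, so their members are not separate observations.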
